A study of Mus musculus with 204 samples.

Results

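The expression of 8 genes of mucosal defence was followed along the mouse gut: the dual oxidases Duox1 and Duox2, their maturation factors Duoxa1 and Duoxa2, the mucosal pentraxins Mptx1 and Mptx2, the goblet cell product Clca1 and the polymeric immunoglobulin receptor Pigr. They were chosen by symbol with earlier results of these data known, and all 8 were found among the 13153 genes measured. Counts of members passing are therefore descriptions and no test of the set. The 50 libraries came from stomach, duodenum, jejunum, ileum and colon of male wild-type C57BL/6J mice, with 5 DIO and 5 lean libraries per segment. The stomach titles read "stomach_lc", taken here as the lesser curvature, so stomach values describe that region only. DIO (diet-induced obese) mice had eaten a diet with 60% fat for 10 weeks from 4 weeks of age, and lean mice ate chow with 13.1% fat; the labels give chow as the diet on arrival for all. The labels also give an age on arrival of 6 to 12 weeks, which cannot be reconciled with a diet start at 4 weeks, and no age at dissection. RNA came from whole frozen tissue pieces, so fewer cells of a type and less RNA per cell cannot be told apart. No label ties a library to a named mouse, and p-values measure the spread between these libraries. Replicate numbers are only names.

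Dual oxidases are membrane enzymes that release hydrogen peroxide at epithelial surfaces, and each needs its own maturation factor, DUOXA1 or DUOXA2, to leave the endoplasmic reticulum. Pentraxins are secreted proteins that bind microbial surfaces, and Mptx2 is known as a Paneth cell transcript of the crypt base. CLCA1 is a metalloprotease that goblet cells secrete into mucus, and PIGR carries IgA and IgM from the tissue across the epithelium into the lumen.

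The genes lay in 4 places. Duox2 (ENSMUSG00000068452, chr2:122279247-122298449, minus strand), Duoxa2 (ENSMUSG00000027225, chr2:122298900-122302885, plus), Duoxa1 (ENSMUSG00000027224, chr2:122302191-122313730, minus) and Duox1 (ENSMUSG00000033268, chr2:122315672-122347972, plus) formed a single cluster. Mptx2 (ENSMUSG00000079180, chr1:173274382-173277777, minus) and Mptx1 (ENSMUSG00000026531, chr1:174330518-174332873, plus) lay on the same chromosome as Pigr (ENSMUSG00000026417, chr1:130826684-130852249, plus). Clca1 (ENSMUSG00000028255) lay at chr3:145003817-145032776 on the minus strand. Coordinates are those of GENCODE M21 on GRCm38, and all are protein-coding genes. Duoxa1 and Duoxa2 overlap by 695 bases on opposite strands. The library kit was stranded, but no source used here gives the strand setting of the counting.

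The 250 bases before the annotated starts of both pentraxins are shown because the copies peaked in different segments, Mptx2 in jejunum and ileum and Mptx1 in colon. Sequences are from RefSeq on GRCm38.p6 (chr1:174330268-174330517, plus strand, for Mptx1 and chr1:173277757-173278006, minus strand, for Mptx2), and capitals mark runs of at least 12 bases shared by both.
Mptx1: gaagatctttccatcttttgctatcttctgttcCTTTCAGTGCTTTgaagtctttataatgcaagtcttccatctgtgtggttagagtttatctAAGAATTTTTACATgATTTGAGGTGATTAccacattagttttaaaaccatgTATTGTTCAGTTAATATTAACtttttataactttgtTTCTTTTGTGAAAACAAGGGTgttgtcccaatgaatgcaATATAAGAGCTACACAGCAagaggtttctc
Mptx2: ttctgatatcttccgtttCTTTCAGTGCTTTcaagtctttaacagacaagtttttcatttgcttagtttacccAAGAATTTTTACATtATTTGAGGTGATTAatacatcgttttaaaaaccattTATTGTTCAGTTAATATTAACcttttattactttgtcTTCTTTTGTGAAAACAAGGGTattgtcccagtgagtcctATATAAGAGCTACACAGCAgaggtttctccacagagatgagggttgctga
Of the 228 aligned bases 197 were identical (86.4%). The longest palindrome in both windows was GTTAATATTAAC, whose first base lay at -96 in Mptx1 and at -117 in Mptx2, counted from the RefSeq start. For Mptx2 that start lies 21 bases inside the GENCODE gene, and for Mptx1 the starts are the same. Of 32851 promoter windows of 300 bases (250 before and 50 after a start) 2 held it, those of the pentraxins. It was chosen after the sequences were read, and a match is a description of letters only. The transcripts were 92.4% identical (734 of 794 aligned bases), and 23 of 700 windows of 100 bases, the read length, occurred in both.

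Duox2 and Duoxa2 point away from each other, with starts 451 bases apart in GENCODE and 673 in RefSeq, whose Duox2 start lies 222 bases inside the GENCODE gene. Duox1 and Duoxa1 are arranged likewise with starts 1942 bases apart. The 250 bases before the Duoxa2 start (chr2:122298650-122298899, plus strand, RefSeq on GRCm38.p6) are shown because these neighbours moved together, with TATAAAA on either strand in capitals.
Duoxa2: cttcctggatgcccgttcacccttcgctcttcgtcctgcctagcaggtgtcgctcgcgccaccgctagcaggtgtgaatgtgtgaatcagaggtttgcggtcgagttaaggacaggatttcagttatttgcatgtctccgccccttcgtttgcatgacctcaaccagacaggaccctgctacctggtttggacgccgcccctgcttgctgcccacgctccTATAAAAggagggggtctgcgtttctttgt
The first base of TATAAAA lay at -30 in Duoxa2, and these letters were not in the RefSeq window of Duox2. On either strand 1801 of the 32851 windows (5.48%) held them, that of Mptx1 among them.

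Libraries held between 9102566 and 27343628 reads (median 18345490), and values are CPM, read counts scaled to the library's total. The comparisons below used limma on log2(CPM + 1) for genes averaging 1 CPM or more in the libraries compared, adjusted over all of them by Benjamini-Hochberg, and a gene passed at an adjusted p under 0.05. Log2 changes are given with their standard error and understate the change of genes at a few CPM. The median change of all genes tested between diets was 0.16 in stomach, 0.15 in duodenum, -0.08 in jejunum, 0.09 in ileum and 0.06 in colon. Marker genes followed the tissue labels: Sis, the sucrase-isomaltase of the small intestine, lay at 0 to 0.690 CPM in stomach and at 1639 to 7395 CPM in duodenum, and Car1, a carbonic anhydrase of colonic enterocytes, at 4095 to 13135 CPM in colon and at most 9.39 CPM elsewhere. Stomach libraries also held squamous epithelium, with 7 squamous markers summing to 413 to 1482 CPM in every library, and at most 2.44 CPM in the other segments.

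Each gene had its own place along the lean gut, as the plot of levels by segment shows. Duox1 and Duoxa1 were stomach transcripts, Duox2 and Duoxa2 peaked in ileum, Mptx2 was nearly absent outside the small intestine, Mptx1 peaked in colon, Clca1 was present in every segment and Pigr was abundant from duodenum onward. Per kilobase of exon, Pigr was the most abundant of the 8 in all 4 intestinal segments of lean mice (804 to 1540 CPM per kb), while Clca1 led in stomach (104 CPM per kb).

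**Figure D1:**
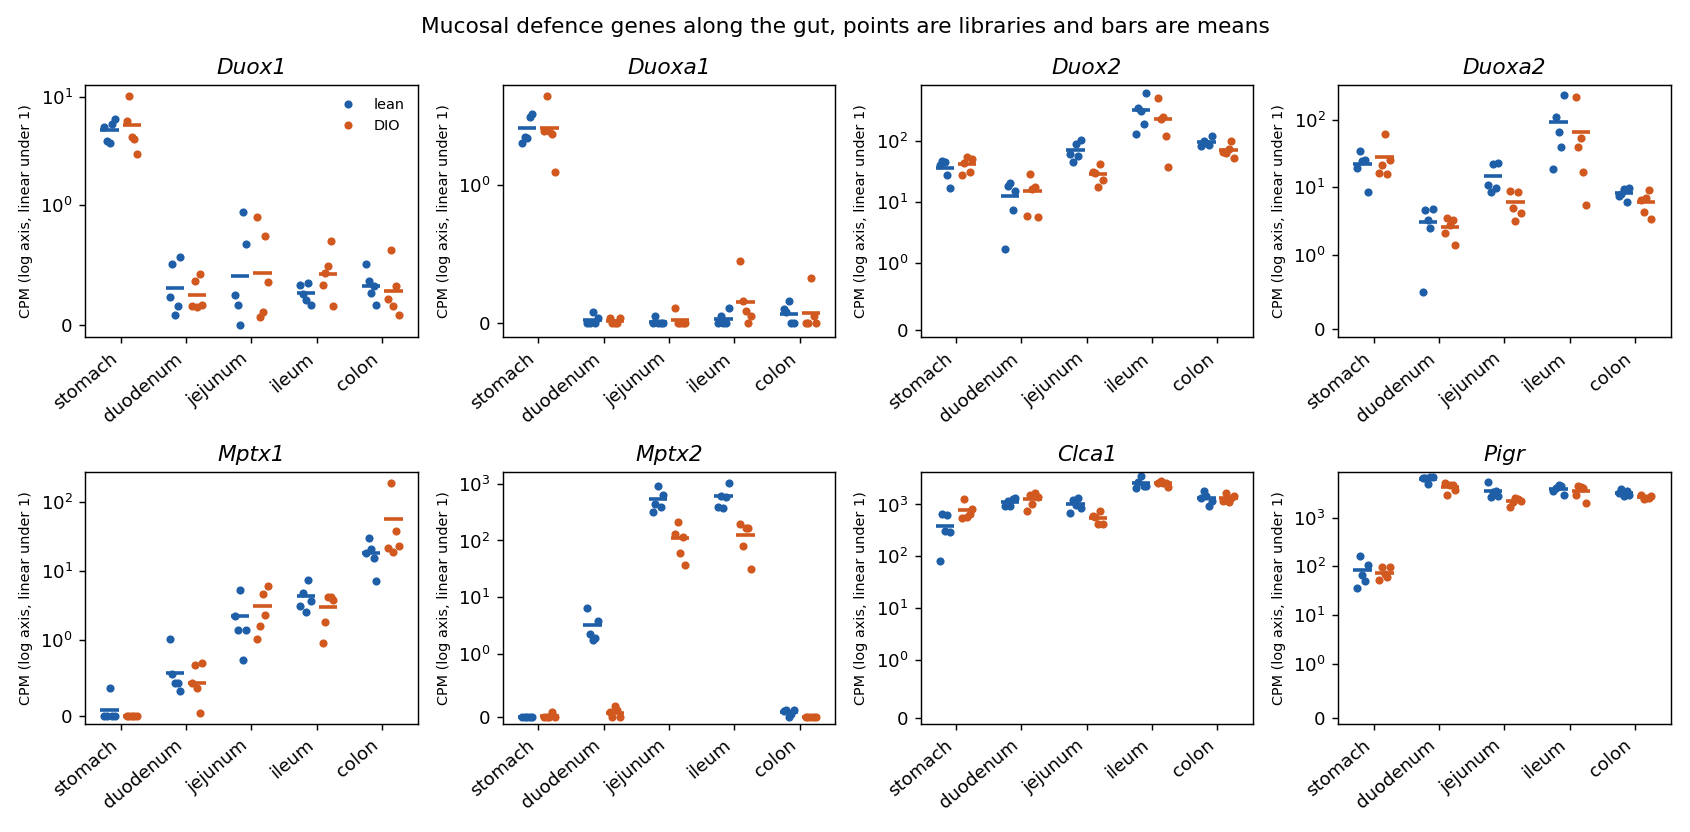
Level of each gene (CPM, log axis, linear under 1) in 5 gut segments. Points are libraries (blue lean, orange DIO, 5 each) and bars are means. In jejunum and ileum every DIO point of Mptx2 lies below every lean point, as for 4.44% and 0.157% of all genes tested there.

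The gastric pair was low. In lean stomach Duox1 measured 5.29, 3.93, 3.76, 5.69 and 6.28 CPM, and its partner Duoxa1 2.21, 2.47, 2.42, 3.57 and 3.77 CPM. Beyond the stomach Duox1 never reached 1 CPM in any of 40 libraries, and Duoxa1 reached at most 0.448 CPM. Within stomach both genes were highest in DIO library 2, at 10.2 and 5.24 CPM, which also had the highest squamous marker sum (1482 CPM). Over all 50 libraries the genes with the most similar profiles to Duoxa1 were Crct1 (Pearson r = 0.98), Serpinb12 (0.98) and Rptn (0.98), and for Duox1 they were Serpinb12 (0.97), Crct1 (0.97) and Lor (0.96). Lor (loricrin) and Rptn (repetin) are proteins of the cornified envelope of squamous epithelium. After the mean of each segment and diet was subtracted, Crct1 (0.72), Serpinb12 (0.71) and Rptn (0.66) still headed the list for Duoxa1. These correlations on log2(CPM + 1) are descriptions over 50 libraries that share segments, and the part of squamous tissue in the level of this pair was not tested.

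Duox2 was the main dual oxidase of the gut. Lean ileum held 129, 346, 317, 194 and 622 CPM, lean colon 83.9, 101, 92.0, 84.8 and 122 CPM, and lean jejunum 61.6, 45.1, 89.3, 56.6 and 104 CPM. Every ileal library exceeded every colonic and jejunal one, while the colonic and jejunal ranges overlapped. Lean stomach followed with 35.5 ± 12.6 CPM (SD, n = 5) and duodenum was lowest with 12.5 ± 7.84 CPM, where 1 library had 1.66 CPM. Duoxa2 had the same ileal peak, at 18.8, 110, 65.7, 39.5 and 236 CPM, but the next highest level was that of stomach, at 22.2 ± 9.39 CPM, followed by jejunum (14.8 ± 7.01), colon (8.09 ± 1.60) and duodenum (3.09 ± 1.71). The stomach and jejunum ranges of Duoxa2 overlapped (8.45 to 34.2 and 8.55 to 22.7 CPM).

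Partner and oxidase rose and fell together among libraries, but their proportion depended on the segment. The correlation of Duox2 with Duoxa2 on log2(CPM + 1) was 0.87 over 50 libraries after the mean of each segment and diet was removed. Within single segments of 10 libraries it was 0.82 in stomach, 0.89 in duodenum, 0.96 in jejunum, 0.98 in ileum and 0.89 in colon without that removal. The genes are neighbours and share each library's depth and tissue piece. Per kilobase of exon, the Duoxa2 to Duox2 ratio in lean libraries was 2.66 ± 0.763 in stomach, 0.854 ± 0.136 in jejunum, 1.07 ± 0.405 in ileum and 0.357 ± 0.0540 in colon (SD, n = 5 each). The stomach ratios (2.04 to 3.78) lay above the ileal ones (0.617 to 1.61), and those in turn above the colonic ones (0.298 to 0.442). DIO ratios were 2.71 ± 1.17, 0.869 ± 0.205, 0.930 ± 0.510 and 0.354 ± 0.0666 in the same order. No test was made of these ratios.

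**Figure D2:**
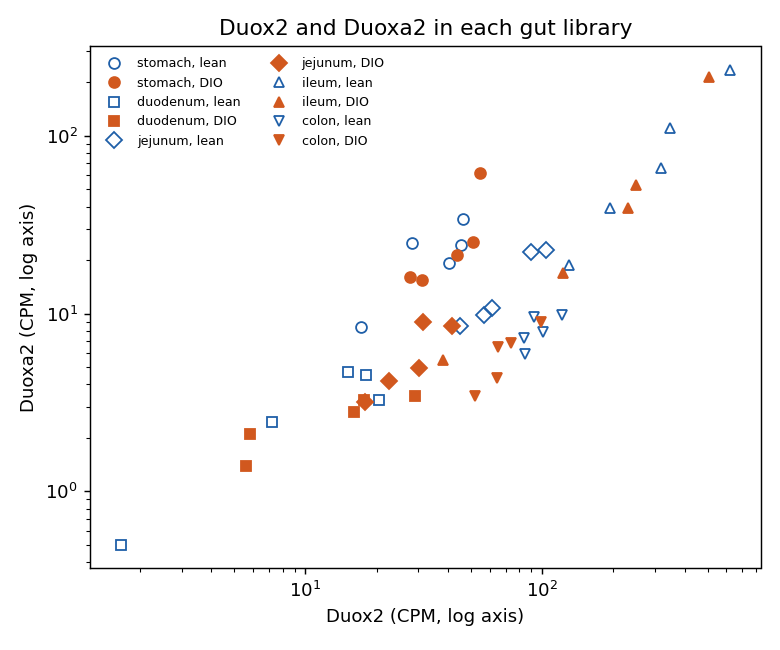
Duoxa2 against Duox2 (both CPM, log axes) in 50 gut libraries. Open blue marks are lean and filled orange marks DIO, with 1 symbol per segment. Colonic libraries lie below the jejunal and ileal line, and stomach libraries lie above it.

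The pentraxins divided the intestine between them. Mptx2 was at 0 in all 5 lean stomach libraries, at 6.53, 2.22, 1.74, 1.91 and 3.83 CPM in lean duodenum, at 311, 446, 923, 394 and 633 CPM in lean jejunum and at 385, 616, 373, 593 and 1009 CPM in lean ileum. In lean colon it was again near 0, at most 0.121 CPM. Mptx1 stood at 2.21 ± 1.83 CPM in lean jejunum and 4.32 ± 1.97 CPM in lean ileum, and was highest in lean colon, with 18.3, 30.3, 20.8, 15.8 and 7.10 CPM. Jejunal and ileal ranges overlapped for both genes, and the lowest colonic library for Mptx1 (7.10 CPM) lay just under the highest ileal one (7.50 CPM). The profiles most like Mptx2 were those of Bcl2l15 (r = 0.94), Itln1 (0.91), a lectin of Paneth and goblet cells, and Bend7 (0.91). Those most like Mptx1 were Sike1 (0.91), Hao2 (0.89) and Aim2 (0.89), and after removal of segment and diet means Itln1 came first for Mptx1 (0.67).

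Clca1 was expressed in every segment, with 2581 ± 592 CPM in lean ileum, 1331 ± 328 in colon, 1123 ± 168 in duodenum, 1017 ± 277 in jejunum and 391 ± 239 in stomach. The ranges of colon, duodenum and jejunum overlapped. Stomach libraries ran from 81.8 to 645 CPM. Pigr rose from 85.0 ± 50.6 CPM in lean stomach to 6198 ± 809 CPM in duodenum, and then stood at 3556 ± 1060, 3939 ± 735 and 3235 ± 412 CPM in jejunum, ileum and colon, whose ranges overlapped. Its profile was closest to Heph (r = 0.98), Cdh17 (0.98), an intestinal cadherin, and Lrat (0.97). The closest profiles to Clca1 were Plekhf2 (0.77), Cldn2 (0.77) and Nol4l (0.75), to Duox2 Smox (0.81), Gm7694 (0.79) and Tgm2 (0.79), and to Duoxa2 Lpcat4 (0.73), Tuba4a (0.69) and Pmvk (0.66).

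Steps between neighbouring lean segments were tested in 1 fit over 25 lean libraries and 3360 genes. From stomach to duodenum 6 of 7 tested members passed, where 65.8% of all genes did. Pigr (6.36 ± 0.29, adjusted p = 1.32e-16), Mptx2 (1.97 ± 0.28, adjusted p = 8.36e-07, with no read in lean stomach) and Clca1 (1.82 ± 0.36, adjusted p = 8.90e-05) rose. Duoxa2 fell by 2.53 ± 0.48 (adjusted p = 4.80e-05), Duox1 fell by 2.19 ± 0.17 (adjusted p = 1.40e-11) and Duox2 fell by 1.68 ± 0.44 (adjusted p = 0.00154). Duox1 passed the 1 CPM filter only through stomach, where its lean mean was 4.99 CPM, against 0.263 to 0.406 CPM in the other segments. Its fall is therefore a description. Duox1 also counts among the 7 tested at the later steps, although it lay under 1 CPM in both segments compared there. Mptx1 changed by 0.53 ± 0.31 (adjusted p = 0.135) and passed in edgeR and DESeq2. It averaged 0.0727 CPM in lean stomach, where 4 of 5 libraries had no read, and 0.559 CPM in lean duodenum. Mptx1 thus passed the filter only through the segments beyond, and its step is a description near the floor. In DIO libraries the Mptx2 step from stomach to duodenum was 0.08 (adjusted p = 0.871).

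From duodenum to jejunum 5 of 7 members passed (24% of all genes): Mptx2 rose by 7.0 ± 0.28 (adjusted p = 2.15e-16), Duox2 by 2.68 ± 0.44 (adjusted p = 5.08e-05), Duoxa2 by 1.98 ± 0.48 (adjusted p = 0.00311) and Mptx1 by 0.90 ± 0.31 (adjusted p = 0.0344), and Pigr fell by 0.84 ± 0.29 (adjusted p = 0.0335). In DIO libraries the Duox2 and Duoxa2 steps were 1.09 (adjusted p = 0.0618) and 0.91 (adjusted p = 0.199). The Pigr call was lost without any of duodenum lean libraries 1, 2, 4 and 5 and jejunum lean libraries 2 to 5 (adjusted p at most 0.0843), and the Mptx1 call without duodenum lean 2, 4 or 5 or jejunum lean 1 or 3 (at most 0.131). From jejunum to ileum 3 of 7 passed (11.2% of all genes), and all 3 rose, as 6.96% of all genes did: Duoxa2 by 2.21 ± 0.48 (adjusted p = 0.00192), Duox2 by 2.02 ± 0.44 (adjusted p = 0.00191) and Clca1 by 1.36 ± 0.36 (adjusted p = 0.0128). Mptx1 (0.81 ± 0.31, adjusted p = 0.106) passed only once jejunum lean library 3 was left out (adjusted p = 0.0132) and under array weights (0.0249). From ileum to colon 5 of 7 passed (30.2% of all genes). Mptx2 fell by 9.01 ± 0.28 (adjusted p = 4.23e-19), Duoxa2 by 2.91 ± 0.48 (3.35e-05), Duox2 by 1.54 ± 0.44 (0.00892) and Clca1 by 0.96 ± 0.36 (0.0451), and Mptx1 rose by 1.82 ± 0.31 (6.04e-05). The Clca1 call did not survive the removal of single libraries in 13 of 25 cases (adjusted p up to 0.111).

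Diet was then compared within each segment, and Mptx2 was the gene with the largest difference. It was lower in DIO jejunum, at 20.4% of the lean mean. In ileum, where it missed the threshold, every DIO library lay below every lean one (21.2% of the lean mean), as for 0.157% of all genes. In duodenum it was lower as well, but it passed the filter there only through the lean libraries. That call was lost in 7 of 19 alternatives. In DIO jejunum Duox2 and Clca1 were lower as well, to 40.2% and 54.3% of lean. No member passed in stomach, ileum or colon in limma. Of the 8 members 6 reached 1 CPM on average in stomach, jejunum and ileum and 5 in duodenum and colon: Mptx1 and Mptx2 were not tested in stomach, Mptx1 in duodenum, Mptx2 in colon, and Duox1 and Duoxa1 anywhere but in stomach.

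**Figure D3:**
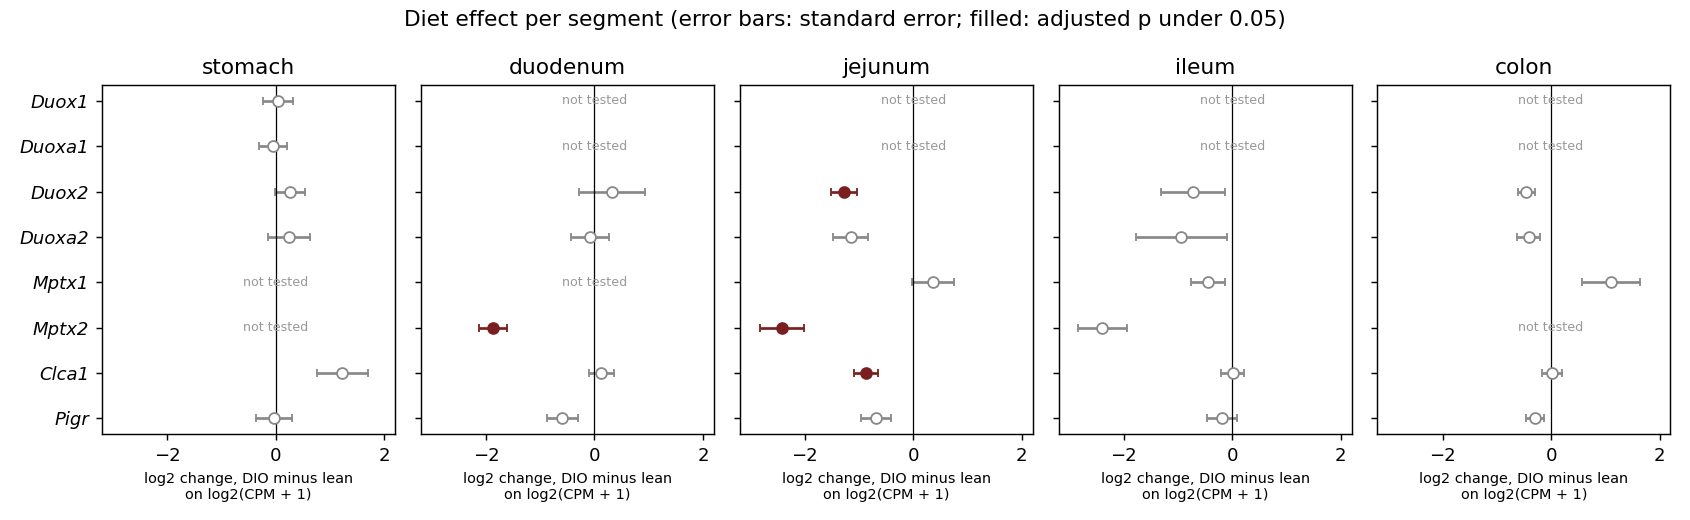
Log2 change (DIO minus lean, on log2(CPM + 1)) of each gene in 5 segments. Error bars are standard errors, filled marks have an adjusted p under 0.05 and genes under 1 CPM were not tested. Mptx2 is near -2 or lower in duodenum, jejunum and ileum, and most other marks lie within 1 of 0.

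In jejunum Mptx2 measured 130, 209, 59.3, 116 and 37.5 CPM in DIO against 311, 446, 923, 394 and 633 CPM in lean libraries. The highest DIO library lay below the lowest lean one, as for 4.44% of all genes. The log2 change was -2.42 ± 0.40 (adjusted p = 0.00551), a 4.90-fold lower mean. Of 6 members tested 3 passed, all lower, where 2.98% of all 3153 genes passed as lower (5.42% in either direction). The members were chosen with earlier results known, so the count is no test of the set. Mptx2 passed in limma, edgeR (adjusted p = 0.0134) and DESeq2 (3.75e-06), and in all 21 alternatives run.

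Duox2 in jejunum measured 31.2, 30.2, 17.8, 41.5 and 22.5 CPM in DIO against 61.6, 45.1, 89.3, 56.6 and 104 CPM in lean libraries. The groups did not overlap and DIO was lower, as for 4.44% of all genes. The log2 change was -1.28 ± 0.25 (adjusted p = 0.0124), and the call was lost in 1 of 21 alternatives, a single fit over all 50 libraries (adjusted p = 0.0676). Duoxa2 had 8.93, 4.97, 3.18, 8.55 and 4.19 CPM in DIO against 10.8, 8.55, 22.1, 9.77 and 22.7 CPM in lean, with a change of -1.15 ± 0.32. The DIO mean of Duoxa2 was 40.3% of lean, close to that of Duox2, but DIO library 1 lay above lean library 2. Its adjusted p was 0.0531 in limma, 0.0354 in DESeq2 and 0.0915 in edgeR. Duox1 and Duoxa1 were below 1 CPM here and were not tested.

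Clca1 in jejunum measured 593, 579, 423, 748 and 418 CPM in DIO against 678, 1216, 989, 1363 and 838 CPM in lean libraries. Only DIO library 4 lay above a lean library. The change was -0.87 ± 0.23 (adjusted p = 0.0443), and the call was fragile: edgeR gave 0.104, rescaling by size factors 0.116 and a single fit over all 50 libraries 0.0578, and without any of DIO libraries 1, 2, 3 and 5 or lean libraries 2 to 5 the adjusted p was 0.0554 to 0.125. Pigr had 1628, 2123, 2505, 2395 and 2142 CPM in DIO against 5336, 2704, 3414, 3528 and 2796 CPM in lean. The groups did not overlap and DIO was lower, as for 4.44% of all genes, and the change was -0.69 ± 0.27 (adjusted p = 0.146 in limma, 0.0359 in DESeq2). Mptx1, in contrast, measured 3.13 ± 2.18 CPM in DIO and 2.21 ± 1.83 CPM in lean jejunum (0.36 ± 0.39, adjusted p = 0.646), with overlapping groups.

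Other cell type markers moved in jejunum as well. The fatty acid binding protein Fabp2 was at 6009 to 26299 CPM in DIO and 1997 to 6825 CPM in lean, while Sis was at 1667 to 3614 against 3059 to 5514 CPM. The sum of 8 enterocyte markers was 15108 to 39412 CPM in DIO and 9361 to 18787 CPM in lean, and the colonic Car1 among them was at most 0.113 CPM in every jejunal library. DIO libraries 3 and 5 had lymphoid marker sums of 149 and 217 CPM, against 26.9 to 98.5 CPM in lean. Without these 2 libraries Mptx2 changed by -1.77 (adjusted p = 0.0196), Duox2 by -0.98 (0.0484) and Clca1 by -0.63 (0.160), an alternative chosen after the data were seen. The part of enterocyte share in these changes was not tested.

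In ileum Mptx2 measured 195, 78.4, 163, 163 and 31.0 CPM in DIO against 385, 616, 373, 593 and 1009 CPM in lean libraries. All 5 DIO libraries lay below all lean libraries, as for 0.157% of the 3182 genes. The log2 change of -2.39 ± 0.45 was as large as in jejunum. It had an unadjusted p of 0.000146, and adjusted p was 0.463 in limma, 0.642 in edgeR and 2.14e-05 in DESeq2. In limma 0 of 3182 genes (0%) passed in ileum and 169 had an unadjusted p under 0.05, edgeR called 0 genes and DESeq2 called 1. A single fit over all 50 libraries gave Mptx2 an adjusted p of 3.53e-05. Without DIO library 1, which had the highest lymphoid sum (293 CPM against 38.8 to 51.4 CPM in lean), the change was -2.61 (adjusted p = 0.118).

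The other members in ileum had wide, overlapping groups. Duox2 measured 505, 230, 250, 123 and 38.0 CPM in DIO (-0.73 ± 0.59, adjusted p = 0.874) and Duoxa2 215, 39.4, 53.1, 16.9 and 5.52 CPM (-0.93 ± 0.83, adjusted p = 0.874). For both, DIO library 1 was highest and DIO library 5 lowest. Clca1 had 2557 ± 235 CPM in DIO and 2581 ± 592 in lean (0.01 ± 0.21, -0.08 after rescaling by size factors), Pigr 3538 ± 1037 against 3939 ± 735 (-0.19 ± 0.28) and Mptx1 2.98 ± 1.51 against 4.32 ± 1.97 (-0.45 ± 0.31). None of these 3 passed (adjusted p from 0.874 to 0.997).

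In duodenum Mptx2 was barely present and still differed. It measured 0.0791, 0, 0.183, 0.116 and 0 CPM in DIO, or 10 reads in all, against 6.53, 2.22, 1.74, 1.91 and 3.83 CPM, or 403 reads, in lean. All DIO libraries lay below all lean ones, as for 0.933% of the 3216 genes, and the change was -1.87 ± 0.26 (adjusted p = 0.0247 in limma, 0.0310 in edgeR, 1.12e-10 in DESeq2). This was 1 of 5 members tested, and 1 of 3216 genes called lower (0.0311%, and 0.311% in either direction). With a mean of 0.0756 CPM in DIO and 3.25 CPM in lean, Mptx2 passed the 1 CPM filter only through the lean libraries. The call and these counts are therefore descriptions. The adjusted p was 0.0554 to 0.0859 without DIO library 3 or 5 or lean library 2, 4 or 5, and 0.0784 with a pseudocount of 5 CPM. Ctse, the only 1 of 16 gastric gland markers measured here, was at 97.1 to 668 CPM in DIO and 13.4 to 270 CPM in lean duodenum, and its part in this result was not tested.

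Pigr in duodenum measured 5051, 2876, 4638, 4627 and 3636 CPM in DIO against 6415, 6434, 4771, 6645 and 6725 CPM in lean. Only DIO library 1 lay above a lean library, lean library 3. The change was -0.59 ± 0.28 (adjusted p = 0.245 in limma, 0.0400 in DESeq2). Duox2 (0.32 ± 0.61, -0.46 with an expression index as covariate), Duoxa2 (-0.08 ± 0.35) and Clca1 (0.13 ± 0.23, -0.03 after rescaling) did not pass (adjusted p from 0.743 to 0.902).

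Because Itln1 is a transcript of Paneth and goblet cells and was measured in the same libraries, Mptx2 was set against it within each library, a comparison chosen after values were seen. In colon Itln1 was low while Clca1 was abundant, so Itln1 does not stand for goblet cells in every segment. In ileum Itln1 measured 2459, 2172, 3598, 3421 and 2399 CPM in DIO and 2439, 3203, 2274, 3595 and 3342 CPM in lean, with overlapping groups (-0.09 ± 0.24, adjusted p = 0.950 in limma). The difference log2(Mptx2 + 1) minus log2(Itln1 + 1) was -4.70 ± 0.951 in DIO and -2.39 ± 0.388 in lean ileum (SD, n = 5 each). In jejunum it was -4.74 ± 1.15 against -3.12 ± 0.209. Itln1 itself measured 1843, 4372, 2027, 1691 and 3676 CPM in DIO jejunum against 2995, 3701, 8662, 3795 and 4355 CPM in lean, with overlapping groups (-0.79 ± 0.38, adjusted p = 0.233). In neither segment did the groups overlap in the Mptx2 to Itln1 difference, and the exact two-sided permutation p was 0.00794 in each, the smallest that 5 against 5 allows (adjusted over 3 segments, 0.0119). Mptx2 alone had already been seen to separate the groups in both segments, so these p-values are no independent test of the diet difference. In duodenum the difference was -6.12 ± 0.551 against -5.08 ± 0.548 (exact permutation p = 0.0317), the groups overlapped, and with a pseudocount of 5 CPM its sign turned (0.13), so it is not read further. Itln1 in duodenum was at 42.8 to 97.9 CPM in DIO and 105 to 155 CPM in lean (-0.83 ± 0.21, adjusted p = 0.129). These groups did not overlap, as for 0.933% of all genes with DIO lower, so that both genes were at lower levels there.

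**Figure D4:**
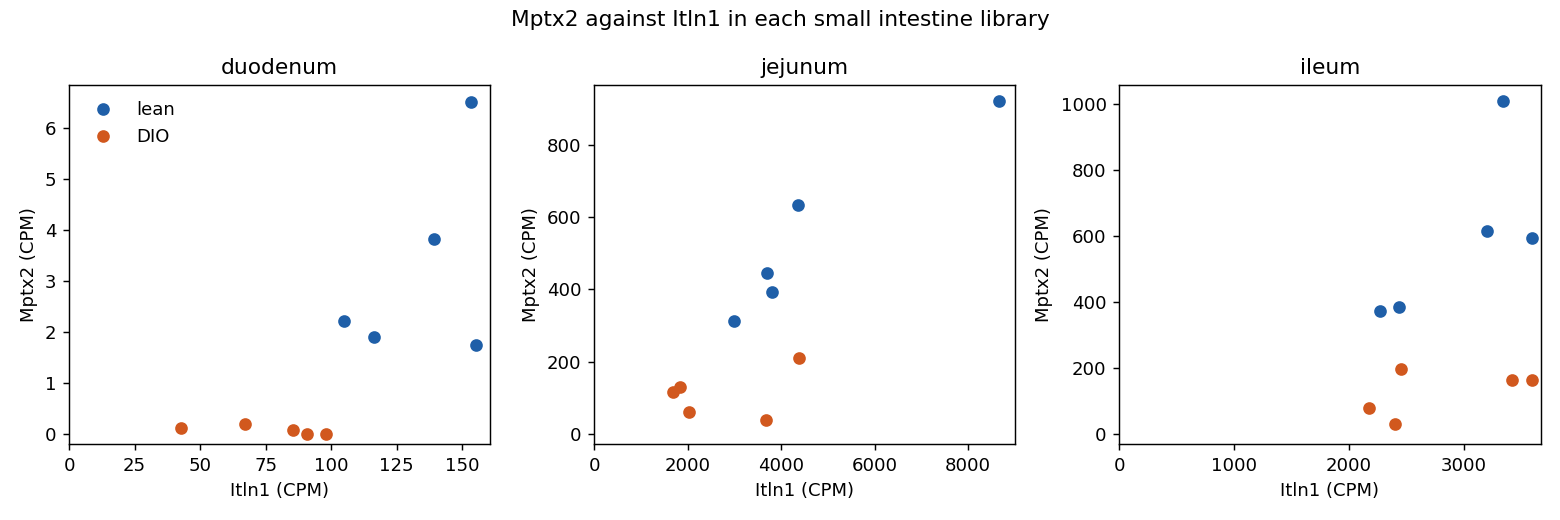
Mptx2 against Itln1 (both CPM, linear axes) in duodenum, jejunum and ileum. Points are libraries (blue lean, orange DIO). In ileum both groups span the same Itln1 range, and all DIO points lie under 200 CPM of Mptx2.

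In stomach 0 of 6 members tested passed in limma as fitted per segment, edgeR or DESeq2, and 1 of 3295 genes did in limma (0.0303%, with 286 at an unadjusted p under 0.05). Clca1 showed the largest difference, with 545, 1299, 574, 647 and 834 CPM in DIO against 81.8, 645, 310, 621 and 300 CPM in lean (1.23 ± 0.47, adjusted p = 0.498). The groups overlapped. Clca1 passed with array weights (adjusted p = 0.0130) and in the single fit over all 50 libraries (0.0139), and in none of the other 18 alternatives. Duox1 (0.04 ± 0.27, -0.11 after rescaling), Duox2 (0.26 ± 0.28), Duoxa1 (-0.04 ± 0.26), Duoxa2 (0.25 ± 0.38) and Pigr (-0.03 ± 0.34) had adjusted p from 0.648 to 0.968. Several of these signs turned with single libraries or settings.

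In colon 0 of 3316 genes passed in limma (0%), 587 had an unadjusted p under 0.05, edgeR called 2 and DESeq2 called 170. Duox2 measured 65.1, 64.5, 73.6, 98.9 and 52.1 CPM in DIO against 83.9, 101, 92.0, 84.8 and 122 CPM in lean, so that 4 of 5 DIO libraries lay below every lean one (-0.46 ± 0.15, adjusted p = 0.156). Pigr was at 2623 ± 219 against 3235 ± 412 CPM (-0.30 ± 0.17, adjusted p = 0.388 in limma, 0.0450 in DESeq2). Mptx1 measured 21.8, 190, 18.7, 38.5 and 22.9 CPM in DIO against 18.3, 30.3, 20.8, 15.8 and 7.10 CPM in lean (1.10 ± 0.54, adjusted p = 0.310). DIO library 2 held 3936 of the 5663 DIO reads, and its Itln1 (12.2 CPM) was also above that of the other 9 colon libraries (1.34 to 2.94 CPM). Clca1 (0.02 ± 0.19, -0.03 after rescaling, adjusted p = 0.962) and Duoxa2 (-0.41 ± 0.22, adjusted p = 0.344) did not pass.

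A diet by segment term, which asks whether the diet effect differed along the gut, was tested over the 50 libraries with limma's F test, and 450 of 3393 genes passed (13.3%). Of 7 members tested, Mptx2 (adjusted p = 0.000217) and Clca1 (adjusted p = 0.0171) passed. Mptx2 had diet changes of -1.87, -2.42 and -2.39 in the small intestine and was at or near 0 in both groups of stomach and colon. Clca1 had changes of -0.87 in jejunum and 1.23 in stomach, with 0.13, 0.01 and 0.02 in duodenum, ileum and colon. Over the 3 small intestinal segments alone the adjusted p was 0.760 for Mptx2 and 0.0559 for Clca1, and edgeR over all 5 gave 0.0526 and 0.162. Duox2 (0.245), Mptx1 (0.199), Pigr (0.507), Duoxa2 (0.527) and Duox1 (0.950) did not pass, so the Duox2 difference in jejunum was not shown to be particular to that segment. Duox1 entered this test only through stomach, with group means of 0.252 to 0.436 CPM in the other segments. Its value therefore tells nothing of a diet effect beyond the stomach.

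Related genes were counted from 7 lists. The lists were short here because many of their genes lie outside the measured chromosomes. In jejunum, where 2.98% of all genes fell, single genes of these lists did. Of 5 CLCA family genes tested 1 fell, Clca3a2, from 17.1 ± 4.03 CPM in lean to 6.81 ± 2.62 CPM in DIO (-1.25 ± 0.24, adjusted p = 0.0120). The median of the 5 was -0.52, against -0.08 over all genes. Of 10 epithelial antimicrobial genes tested 1 fell, Sprr2a3, a small proline-rich protein, from 26.9 ± 14.2 to 7.08 ± 0.881 CPM (-1.60 ± 0.34, adjusted p = 0.0188). The list median was -0.49. The Sprr2a3 call was lost in 5 of 21 alternatives (adjusted p up to 0.0616), among them without DIO library 3 or lean library 2 or 4. In jejunum none of 3 NADPH oxidase and peroxidase partner genes, 2 Paneth cell genes, 7 goblet cell and mucus genes, 3 IgA transport and plasma cell genes or 13 cytokine and sensing genes passed in limma. No gene of any list passed in the other 4 segments. List medians farthest from that of all genes (0.15) were in duodenum, at 1.59 for 8 goblet cell and mucus genes and -0.68 for 5 CLCA family genes. Among the former Muc1, a membrane mucin, averaged 72.9 CPM in DIO and 19.3 CPM in lean (3.11 ± 0.94, adjusted p = 0.151), an example chosen after its values were seen. Ctse was also at higher levels in DIO duodenum, and its part in these medians was not tested.

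Outside the gut, in 154 libraries of 16 other tissues, Mptx2 and Duoxa2 stayed under 1 CPM in every library, Mptx1 in 153, Clca1 in 150 and Duox2 in 149. Pigr was abundant in liver, at 1293 ± 140 CPM in lean and 1597 ± 152 in DIO, and in kidney, at 318 ± 67.3 and 359 ± 51.1 CPM. Duoxa1 reached its highest group mean of the series in mesenteric fat of DIO mice (15.1 CPM), above the 2.89 CPM of lean stomach, while Duoxa2 stood at 0.183 CPM there. These levels are descriptions, and diet was not tested outside the gut.

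**Figure D5:**
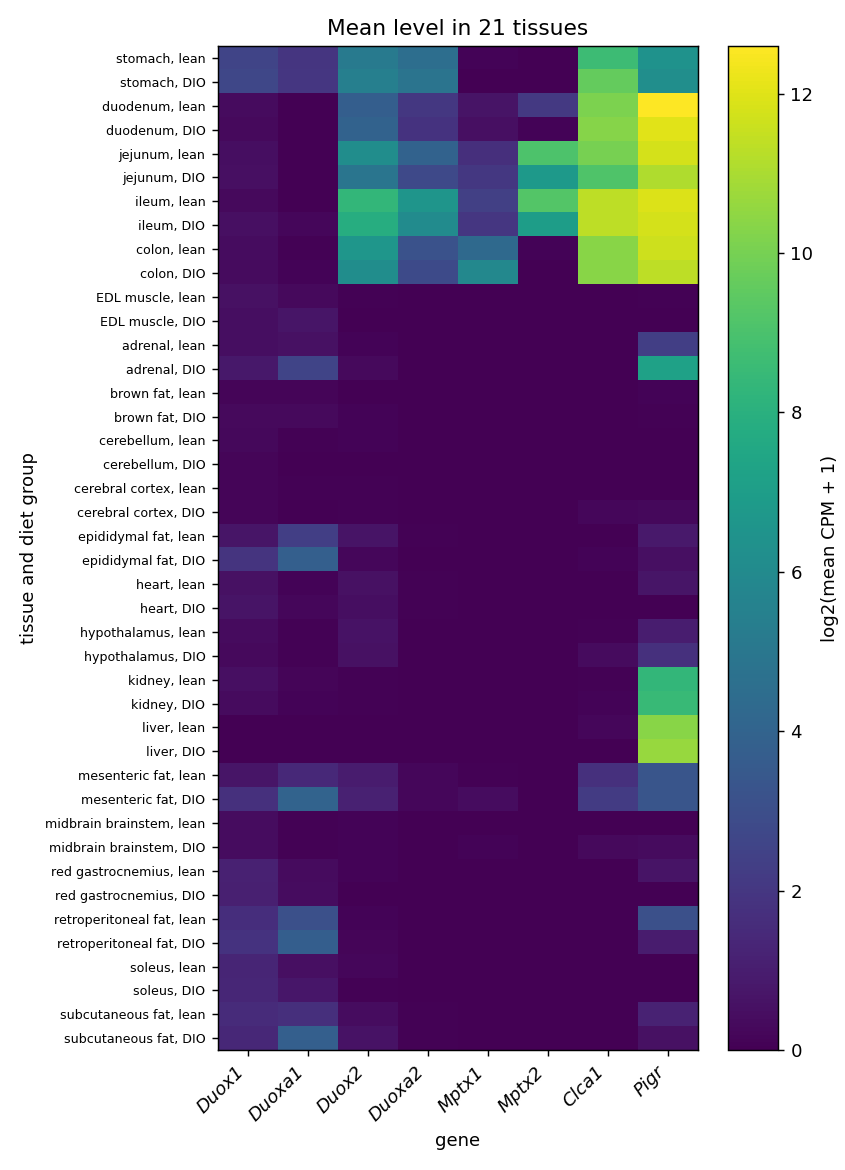
Mean level of each gene as log2(mean CPM + 1), in colour, in 21 tissues by diet group. Rows are tissue and diet groups and columns are genes. Outside the gut Pigr is brightest in liver and kidney. Duoxa1 shows in the white fat depots of both diet groups, with higher means in DIO mice.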

How the data were processed

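Tissue pieces were frozen, RNA was isolated, and stranded mRNA libraries were sequenced as paired 100-base reads on an Illumina HiSeq, per the labels' protocols. STAR, HTSeq, FastQC and DESeq2 appear in the submitters' processing notes without versions. No source used here gives the genome build or the strand setting of the counting. The deposited table holds CPM values from the authors, which are whole reads scaled to each library's total (100% of values within 0.001 read). It lists 13154 genes, of which 13153 are complete, on chromosomes 1, 2, 3, X and the start of 4, and holds 13.0 to 20.9% of the reads of a gut library. Of its 205 columns 1 matched no sample and was not used. Ensembl identifiers were named from GENCODE M21 (13139 named, 14 not).

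Diet was tested per segment with limma 3.58.1 (trend) on log2(CPM + 1) for genes averaging 1 CPM or more, with Benjamini-Hochberg adjustment over all of them. Neighbouring lean segments were tested in 1 fit, and the diet by segment term over 50 libraries by an F test. Recovered reads were tested with edgeR 4.0.16 and DESeq2 1.42.0 as alternatives, beside other pseudocounts, filters, rescaling by size factors, array weights, a single fit, an expression index of 10 genes as covariate and leaving out each library. R 4.3.3 and Python 3.11.15 (scipy 1.17.1) were used. The limma, edgeR and DESeq2 fits were run on simulated data for the jejunum diet effect, the jejunum to ileum step and the diet by segment term. Among the 100 pairs of libraries within the gut groups the lowest chi-square per degree of freedom was 8.22, so no pair agreed within sampling noise.

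The members and gene lists were chosen with earlier results of these data known. All 8 members are named in every comparison, from each list up to 4 genes that passed and averaged 10 CPM or more in either group, and for each member the 3 genes with the highest Pearson r among 2152 genes of at least 10 CPM. The list for Duox1 after removal of segment and diet means is not reported here. Promoters come from RefSeq (GRCm38.p6), where 7 of the 8 members had an entry.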

Additional observations from a re-analysis of the deposited data

Results flagged for a closer look

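In 4 groups of 5 libraries a single library stood apart from the rest; 55 groups were examined, and chance gives about 1 in 20. Duoxa2 measured 61.4 CPM in stomach DIO library 3 against 15.5 to 25.3 CPM in the other 4, and 215 CPM in ileum DIO library 1 against 5.52 to 53.1 CPM. Mptx1 measured 190 CPM in colon DIO library 2 against 18.7 to 38.5 CPM. Pigr measured 4771 CPM in duodenum lean library 3 against 6415 to 6725 CPM. That library also had an enterocyte marker sum of 10146 CPM, against 18890 to 20655 in the other lean duodenum libraries. Its smooth muscle sum was 2370 CPM against 515 to 1337. Ileum DIO library 1 had a lymphoid sum of 293 CPM, against 34.8 to 56.3 in the other DIO ileum libraries. The part of tissue make-up in these values was not tested.

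The diet effect differed between gut segments for Mptx2 (adjusted p = 0.000217) and Clca1 (adjusted p = 0.0171) by the limma F test. Mptx2 was at or near 0 in both groups of stomach and colon, so no diet change could show there. Over the 3 small intestinal segments alone the adjusted p was 0.760 for Mptx2 and 0.0559 for Clca1, and edgeR over all 5 segments gave 0.0526 and 0.162.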

How the results depend on the processing

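Mptx2 in jejunum passed under every alternative run; the Mptx2 call in duodenum, the Clca1 call in jejunum and the ileal adjusted p of Mptx2 depended on the setting. Numbers of genes passing were as follows. With array weights: 1537 in stomach, 1282 in duodenum, 506 in jejunum, 598 in colon, 1397 from duodenum to jejunum, 694 from jejunum to ileum, 1828 from ileum to colon and 2087 for diet by segment. With DESeq2: 27, 170, 358, 1 and 170 in stomach, duodenum, jejunum, ileum and colon. With the single fit: 210, 414, 357, 3 and 3. With the covariate: 3 in duodenum, 272 in jejunum and 4 in colon. A pseudocount of 5 CPM and a filter of 10 CPM gave 6 each in duodenum, no filter gave 82 in jejunum, and rescaling and edgeR gave 2 each in colon. DIO libraries gave 1277 from duodenum to jejunum and 1284 from jejunum to ileum, and small intestine alone 255 for diet by segment. Members passing were 1 in stomach (array weights, single fit), 0 in duodenum (pseudocount 5, filter 10 CPM, covariate) or 2 (array weights, DESeq2), 5 (DESeq2) or 1 (single fit) in jejunum, 1 in ileum (DESeq2, single fit), 1 in colon (DESeq2), 3 from duodenum to jejunum without a filter, and 1 (rescaled) or 0 (edgeR, small intestine) for diet by segment.

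Leaving out 1 library gave 1 to 2 genes in stomach, 0 to 1225 in duodenum, 53 to 285 in jejunum, 0 to 1 in ileum, 0 to 39 in colon and 257 to 859 for diet by segment. The 1225 genes in duodenum came without lean library 3. Members ranged from 0 to 1 in duodenum, 2 to 3 in jejunum and 3 to 5 from duodenum to jejunum.

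Signs turned for changes near 0 or with wide spread. In stomach Duox1 was -0.11 rescaled, -0.068 with edgeR and -0.070 with DESeq2, and with array weights Duox2 was -0.26, Duoxa2 -0.35 and Duoxa1 0.086 (0.041 with the covariate). In duodenum Clca1 was -0.031 rescaled, -0.0081 with DESeq2 and -0.062 with the covariate, Duox2 -0.46 with the covariate, and the Mptx2 to Itln1 difference 0.13 with a pseudocount of 5 CPM. Mptx1 in jejunum was -0.16 without the high lymphoid libraries. Clca1 in ileum was -0.085 rescaled, -0.061 with array weights, -0.10 with edgeR and -0.11 with DESeq2, and in colon -0.034 rescaled, -0.048 with edgeR, -0.048 with DESeq2 and -0.016 with the covariate. In DIO libraries Duox1 changed by 0.018 from jejunum to ileum and -0.16 from ileum to colon.

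Leaving out 1 library moved stomach Duox1 between -0.18 and 0.20, Duoxa1 between -0.23 and 0.14, Duoxa2 between -0.081 and 0.43 and Pigr between -0.28 and 0.25. In duodenum Duox2 lay between -0.18 and 0.57 and Duoxa2 between -0.40 and 0.077. Clca1 lay between -0.057 and 0.13 in ileum and between -0.10 and 0.14 in colon. Duox1 lay between -0.052 and 0.19 from duodenum to jejunum and between -0.23 and 0.013 from jejunum to ileum, and Mptx2 between -0.070 and 0.36 there. The cause was not tested. Mptx2 in DIO duodenum rested on 0 to 5 reads per library, against 44 to 169 in lean. Beyond the stomach Duox1 had at most 18 reads in a library and Duoxa1 at most 8.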

Other observations

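Duoxa1, which in the gut was a stomach transcript (2.89 CPM in lean and 2.92 CPM in DIO stomach on average), was at higher levels in the 4 white fat depots of DIO mice than in any gut segment. Brown fat held 0.255 CPM in DIO and 0.124 CPM in lean mice. In DIO mice it averaged 15.1 ± 5.64 CPM in mesenteric fat (SD, n = 4), 13.1 ± 2.72 in subcutaneous fat (n = 3) and 12.8 ± 4.13 in retroperitoneal fat (n = 5), and ranged from 8.17 to 20.2 CPM in epididymal fat (n = 5). In lean mice it averaged 1.72 ± 0.354 CPM in mesenteric fat (n = 3), and 2.29 ± 2.47 in subcutaneous, 7.53 ± 1.58 in retroperitoneal and 4.10 ± 1.55 in epididymal fat (n = 5 each). The groups did not overlap in mesenteric fat (lowest DIO 7.21, highest lean 2.12), subcutaneous fat (10.0 and 6.04) or epididymal fat (8.17 and 5.97), and overlapped in retroperitoneal fat (5.70 and 9.63). The oxidase partner Duox1 was lower there, at 2.40 to 2.70 CPM on average in mesenteric, epididymal and retroperitoneal fat of DIO mice. These values were chosen after they were seen and were not tested. The share of all genes whose diet groups did not overlap was not computed for fat, so the separation is not read as particular to Duoxa1.

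Pigr in the adrenal gland of DIO mice averaged 147 ± 323 CPM (n = 5), where 1 library held 725 CPM and the median was 4.11 CPM.

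After the means of segment and diet were removed, the genes that varied most like Duox2 in the gut were Ctse (r = 0.54), Fam241a (0.54) and Alpk1 (0.54). For Duoxa2 they were AA467197 (0.61), B3gnt7 (0.53) and Sprr2a3 (0.47), for Mptx2 AA467197 (0.49), Eif2s2 (0.46) and Adh6a (0.44), for Clca1 S100a10 (0.66), Gpa33 (0.55) and Phgr1 (0.55), and for Pigr Fcer1g (0.61), Prpf38b (0.59) and Sp100 (0.59). These are descriptions over 50 libraries.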
